A study of Mus musculus with 4 samples.

Results

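The basal and stress keratins of the mouse mammary gland, Krt5, Krt14, Krt15, Krt17, Krt16, Krt6a and Krt6b, were read in RNA sequencing libraries of mammary epithelial cells grown with or without baicalin. Baicalin is a flavonoid glycoside from the roots of Scutellaria. The 7 genes were found by symbol among the 54446 genes of the deposited table, and each symbol matched 1 gene. All 7 had a level above 0 in all 4 libraries, as did 17787 genes in total. The cells came from the mammary glands of wild type C57BL/6 mice, were sorted by flow cytometry as basal or luminal, and were embedded in growth factor-reduced Matrigel. The culture medium held EGF and, as the treatment, 100 μM baicalin or DMSO alone, and the labels give neither an age nor a length of treatment. There was 1 library for each of the 4 combinations: basal with DMSO, basal with baicalin, luminal with DMSO and luminal with baicalin.

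Keratins are the intermediate filament proteins of epithelial cells, and every filament is built from pairs of a type I and a type II chain. In the mammary gland the type II keratin Krt5 and the type I keratin Krt14 mark the outer basal layer of myoepithelial and stem cells, whereas the type II keratin Krt8 and the type I keratin Krt18 mark the inner luminal layer. Krt15 is a further type I chain of basal cells, known best from the hair follicle. Krt17, Krt16, Krt6a and Krt6b are called stress keratins because skin cells switch them on after wounding, with Krt16 and Krt17 as type I and Krt6a and Krt6b as type II chains.

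Levels are given in FPKM, the number of sequenced fragments per kilobase of exon after division by library depth. The 4 libraries held from 19356105 to 20648781 counted fragments, and a single fragment added about 0.05 FPKM to a gene of 1 kb. With 1 library in each condition there were no replicates and no test. The 95% intervals given here are exact and cover counting error only. The 2 main marker lists went against the labels. Under DMSO, 11 of 11 basal and myoepithelial markers were higher in the library labelled luminal, 10 of them by more than 1 on the scale of log2(FPKM + 1), and their summed level was 93.9 FPKM for the basal label and 944 FPKM for the luminal label. Of 10 luminal epithelial markers, 10 were lower in the library labelled luminal, 5 of them by more than 1, with summed levels of 4560 and 1466 FPKM in the same order. The hormone-sensing luminal markers were mixed. Of 6, 3 were higher in the luminal-labelled library by more than 1, Pgr, Foxa1 and Cited1, and 1 was lower, Prlr. Of the 17787 genes above 0 in all libraries, 4.71% were higher and 3.86% lower by more than 1 in this comparison. The libraries are therefore called by their labels throughout, basal-labelled and luminal-labelled. In such bulk libraries, fewer cells of a type and less RNA per cell cannot be told apart.

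The 7 genes lie in the 2 keratin clusters of the mouse genome, and all are protein-coding genes on the minus strand. On GRCm38, Krt15 (ENSMUSG00000054146) lies at chr11:100131758-100135928, Krt14 (ENSMUSG00000045545) at chr11:100203162-100207548, Krt16 (ENSMUSG00000053797) at chr11:100246091-100248902 and Krt17 (ENSMUSG00000035557) at chr11:100256217-100261029. The type II genes are packed more closely, with Krt6b (ENSMUSG00000023041) at chr15:101676023-101680287, Krt6a (ENSMUSG00000058354) at chr15:101689910-101694307 and Krt5 (ENSMUSG00000061527) at chr15:101707070-101712898. Krt6b and Krt6a are separated by 9.62 kb and Krt6a and Krt5 by 12.8 kb.

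Krt6a and Krt6b are near-identical copies, and the coding sequences of the 2 genes matched at 97.8% of 1659 aligned bases, with 37 differences. The 90 coding bases in which they differ most are shown because only such stretches let sequencing reads tell the copies apart. They lie in exon 4 of 9 of both genes, at chr15:101692484-101692573 for Krt6a and chr15:101678303-101678392 for Krt6b on GRCm38. Capitals mark the 12 bases that differ.
Krt6a: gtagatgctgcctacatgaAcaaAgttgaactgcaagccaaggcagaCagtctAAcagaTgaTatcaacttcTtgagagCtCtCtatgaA
Krt6b: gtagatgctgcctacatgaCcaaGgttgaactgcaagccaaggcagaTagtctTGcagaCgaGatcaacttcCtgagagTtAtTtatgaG

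The type I members Krt14, Krt16 and Krt17 are less alike, with a coding identity of 86.5% between Krt14 and Krt16, 84.6% between Krt14 and Krt17 and 78.9% between Krt17 and Krt16. The 90 coding bases in which these genes differ least are shown as the place where their reads are hardest to assign. They lie in exon 6 of 8 of each gene, at chr11:100204131-100204220 for Krt14, chr11:100246633-100246722 for Krt16 and chr11:100257456-100257545 for Krt17 on GRCm38. Capitals mark the 4 positions at which at least 1 of the genes differs from the others.
Krt14: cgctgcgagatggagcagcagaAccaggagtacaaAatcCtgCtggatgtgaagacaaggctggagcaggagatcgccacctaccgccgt
Krt16: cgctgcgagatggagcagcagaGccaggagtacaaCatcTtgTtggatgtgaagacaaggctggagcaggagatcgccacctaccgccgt
Krt17: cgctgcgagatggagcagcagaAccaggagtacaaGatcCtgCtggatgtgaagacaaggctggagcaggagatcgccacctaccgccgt

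How far such sharing could reach was counted in windows of 100 bases of the transcripts, searched on either strand. For Krt6a, 42.9% of the windows occurred unchanged in another gene, most often Krt6b, and for Krt6b 30.6% did. The share of Krt6a includes matches to Gm49428, a gene on the opposite strand within Krt6a. For Krt16 the share was 24.3%, most often with its pseudogene Gm11597, against 3.81% for Krt5, 2.78% for Krt14 and 0 for Krt15 and Krt17. The levels of Krt6a, Krt6b and Krt16 are therefore less certain than those of the other members. The other genes that hold such windows, the pseudogene among them, had at most 0.442 FPKM in any library.

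Of the 7 genes, 2 had an entry in the RefSeq table of promoters, Krt5 and Krt14. The entry of Krt14 starts 1518 bases inside the gene model used here and is not printed. The Krt5 promoter is shown because Krt5 gave the highest difference between the labels under baicalin and the most negative change with baicalin in the basal-labelled libraries. It covers 250 bases before to 50 bases after the start site, at chr15:101712856-101713155 on the minus strand of GRCm38.p6, and capitals mark a decamer of the kind that p53 and its relative p63 bind, from base -95 to base -86.
Krt5: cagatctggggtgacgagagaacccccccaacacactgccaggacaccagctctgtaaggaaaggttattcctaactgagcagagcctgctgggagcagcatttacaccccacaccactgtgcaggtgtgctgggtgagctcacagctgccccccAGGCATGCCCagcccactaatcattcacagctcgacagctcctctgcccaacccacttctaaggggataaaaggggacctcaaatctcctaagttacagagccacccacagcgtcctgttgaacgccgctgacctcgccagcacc

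Such a p53-family decamer was found in 8.36% of the 32851 promoters of the table on either strand, so the match is a description and not a site. Other motifs had no exact match in the windows of Krt5 or Krt14 on either strand. These were the TATA box, searched as TATAAA and held by 13.6% of all promoters, and the SP1 motif, searched as GGGCGG and held by 35.7%. The AP-1 motif, searched as TGANTCA, was held by 7.81% of all promoters and the AP-2 motif, searched as GCCNNNGGC, by 16.6%. An exact search misses variants of a motif, such as GATAAA in the Krt5 window, so whether a TATA box lies there was not tested. The Krt14 window lies inside the gene model used here, so it may not hold the promoter of Krt14.

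The first question was how the 7 keratins were spread over the 4 libraries. Krt14 was the highest member in each library and ranked between 5 and 59 among all protein-coding genes. Its level was 1494 FPKM in the basal-labelled DMSO library, 417 FPKM in the basal-labelled baicalin library, 2308 FPKM in the luminal-labelled DMSO library and 3132 FPKM in the luminal-labelled baicalin library. Krt5, its partner chain, had 128, 3.01, 2015 and 2415 FPKM in the same order. Both luminal-labelled libraries were thus far above both basal-labelled ones for Krt5, and the basal-labelled baicalin library was the lowest for both genes.

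Krt15 had 0.485, 0.725, 42.6 and 4.00 FPKM in that order of libraries, and was the only member whose highest level was in the luminal-labelled DMSO library. Only 17 and 26 fragments lay behind its levels in the basal-labelled libraries, against 1457 and 146 in the luminal-labelled ones.

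Among the stress keratins, Krt17, which is also found in the cells of skin appendages, had 122, 53.1, 358 and 1140.0 FPKM. Krt6a, the more abundant of the Krt6 copies, had 67.3, 3.14, 107 and 539 FPKM. Krt16, its usual partner in wounded skin, had 19.5, 1.83, 37.9 and 199.6 FPKM. Krt6b had 2.75, 0.0882, 9.82 and 54.0 FPKM, and its level in the basal-labelled baicalin library stood for 4 fragments. Krt5, Krt14 and the 4 stress keratins shared 1 order of libraries: luminal-labelled with baicalin, luminal-labelled with DMSO, basal-labelled with DMSO, basal-labelled with baicalin.

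**Figure D1:**
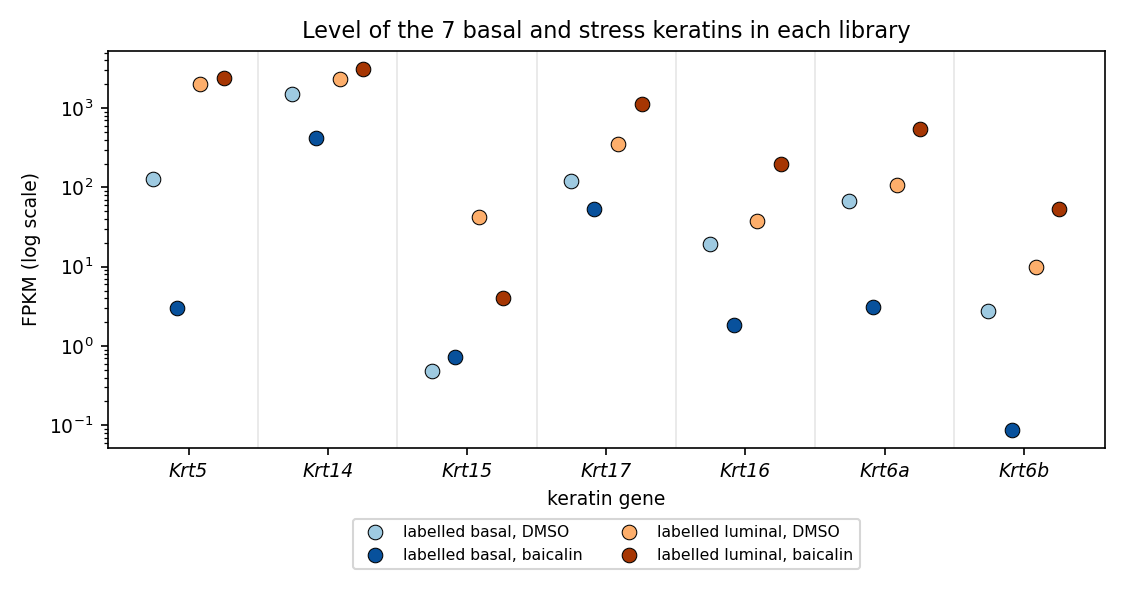
Level of each of the 7 keratins (FPKM, log scale) in each library, with 1 point per library and no error bar because there was 1 library per condition. The luminal-labelled baicalin library is the highest for every gene but Krt15, and Krt5 spans from 3.01 to 2415 FPKM.

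Within a library, neighbours in the order of levels could be set against counting error only. In the basal-labelled DMSO library Krt5 (95% interval 125 to 131 FPKM) and Krt17 (118 to 126 FPKM) overlapped. In the basal-labelled baicalin library the order was Krt14, Krt17, Krt6a, Krt5, Krt16, Krt15 and Krt6b, and Krt6a (2.66 to 3.68 FPKM) overlapped Krt5 (2.52 to 3.56 FPKM). In the luminal-labelled DMSO library the order was Krt14, Krt5, Krt17, Krt6a, Krt15, Krt16 and Krt6b, and in the luminal-labelled baicalin library it was Krt14, Krt5, Krt17, Krt6a, Krt16, Krt6b and Krt15. No neighbours overlapped in these luminal-labelled libraries, and the closest were Krt15 (40.4 to 44.8 FPKM) and Krt16 (35.7 to 40.2 FPKM) under DMSO. How far repeat cultures would differ is not known.

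The comparison of the labels under DMSO asks which keratins set the untreated cell populations apart. All 7 members were higher in the luminal-labelled library, and for 4 of 7 the log2 difference passed 1. Of the 17787 genes tested, 4.71% were higher and 3.86% lower by that much. The median difference of the members was 1.53, against 0.01 over all genes. Differences are log2(FPKM + 1) in the luminal-labelled library minus that in the basal-labelled one, which understates the change of genes with a low level.

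The basal keratins held both ends of this range. Krt15 was 87.9-fold higher in the luminal-labelled library (95% interval 54.7 to 151), a log2 difference of 4.88. Krt5 was 15.7-fold higher (15.3 to 16.2), a log2 difference of 3.97. Krt14 was 1.54-fold higher (1.53 to 1.56), a log2 difference of 0.63 that did not pass 1. Of the basal pair, it was thus the type II chain that differed more between the labels.

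Of the stress keratins, Krt6b was 3.57-fold higher (2.92 to 4.41) and Krt17 was 2.93-fold higher (2.82 to 3.04) in the luminal-labelled DMSO library. Krt16 was 1.94-fold higher (1.76 to 2.14) and Krt6a was 1.60-fold higher (1.53 to 1.67), with log2 differences of 0.92 and 0.67 that did not pass 1.

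Under baicalin the same comparison of labels gave wider differences. For 7 of 7 members the luminal-labelled library was higher by more than 1, as it was for 5.24% of all genes tested, while 2.99% were lower by more than 1. The median difference of the members was 5.66, against -0.03 over all genes. Krt5 was 803-fold higher (678 to 958) and its log2 difference of 9.24 was the highest of the 17787 genes tested. Such ranks are on the log2(FPKM + 1) scale, which favours genes with a high level, and were not computed for ratios of FPKM. Sostdc1, for example, had a larger ratio, with 0.0277 FPKM in the basal-labelled and 79.4 FPKM in the luminal-labelled baicalin library. Krt6a was 172-fold higher (147 to 203), with a log2 difference of 7.03, the third highest. Krt16 was 109-fold higher (84.4 to 144), with a log2 difference of 6.15.

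Krt6b was 613-fold higher, with a wide interval from 239 to 2250 because of the 4 fragments in the basal-labelled library. Its log2 difference was 5.66, and 9.26 without the pseudocount of 1. Krt17 was 21.5-fold higher (20.4 to 22.6) and Krt14 was 7.51-fold higher (7.38 to 7.64). Krt15 was 5.52-fold higher (3.62 to 8.73), with a log2 difference of 1.54, and 2.46 without a pseudocount. For Krt15 alone the labels were thus further apart under DMSO than under baicalin, although the difference between these comparisons was not tested.

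The effect of baicalin was then set out within each label. In the basal-labelled libraries, 6 of 7 members were lower with baicalin by more than 1 and none was higher by that much. Of all genes tested, 3.33% were lower and 2.15% higher. The median change of the members was -1.84, against 0.01 over all genes. Here a change is log2(FPKM + 1) in the baicalin library minus that in the DMSO library.

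Krt5 had 128 FPKM under DMSO and 3.01 FPKM under baicalin, 42.6-fold lower (35.9 to 50.9). Its change of -5.01 was the most negative of the 17787 genes tested, and its rank among protein-coding genes went from 253 to 8815. Krt14 went from 1494 to 417 FPKM, 3.58-fold lower (3.52 to 3.65), a change of -1.84. Its partner chain Krt5 was thus reduced much further, and Krt14 still ranked 59 among protein-coding genes.

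Krt15 differed from the other members in the basal-labelled libraries. Its 17 fragments under DMSO and 26 under baicalin gave a ratio of FPKM of 1.497 whose interval (0.782 to 2.94) includes no change, so that no difference was detectable at this depth.

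All 4 stress keratins were lower with baicalin in the basal-labelled libraries. Krt6a went from 67.3 to 3.14 FPKM, 21.4-fold lower (18.2 to 25.4), and its change of -4.04 was the second most negative of all genes tested. Krt16 went from 19.5 to 1.83 FPKM, 10.7-fold lower (8.16 to 14.3), a change of -2.86. Krt17 went from 122 to 53.1 FPKM, 2.30-fold lower (2.17 to 2.44), a change of -1.19. Krt6b went from 122 fragments to 4, 31.2-fold lower (11.9 to 116), and its change of -1.78 became -4.96 without the pseudocount. The type II members Krt5, Krt6a and Krt6b each had a larger fold in FPKM than the type I members Krt14, Krt16 and Krt17, although the intervals of Krt6b and Krt16 overlapped.

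In the luminal-labelled libraries, baicalin went with higher stress keratins. The change passed 1 upwards in 4 of 7 members, all of them stress keratins, and downwards in 1. Of all genes tested, 2.37% were higher and 1.59% lower. The median change of the stress keratins was 2.33 and that of the basal keratins 0.26, against -0.02 over all genes.

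Krt6b was 5.50-fold higher with baicalin (4.96 to 6.11), going from 9.82 to 54.0 FPKM. Krt16 was 5.27-fold higher (4.95 to 5.61), going from 37.9 to 199.6 FPKM. Krt6a was 5.02-fold higher (4.87 to 5.18), going from 107 to 539 FPKM. These 3 genes thus changed by similar factors, and the intervals of Krt16 overlapped with those of Krt6a and Krt6b. Krt17 was 3.19-fold higher (3.12 to 3.26), going from 358 to 1140.0 FPKM, and became the gene of rank 20 among protein-coding genes.

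The basal pair moved little in the luminal-labelled libraries. Krt14 was 1.36-fold higher with baicalin (1.34 to 1.37) and Krt5 was 1.20-fold higher (1.19 to 1.21), log2 changes of 0.44 and 0.26. Both intervals leave out no change, but they hold counting error only, and whether repeat cultures vary by as much is not known. Krt15 was 10.6-fold lower (8.97 to 12.7), going from 42.6 to 4.00 FPKM, and its change of -3.12 was the fourth most negative of all genes tested.

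**Figure D2:**
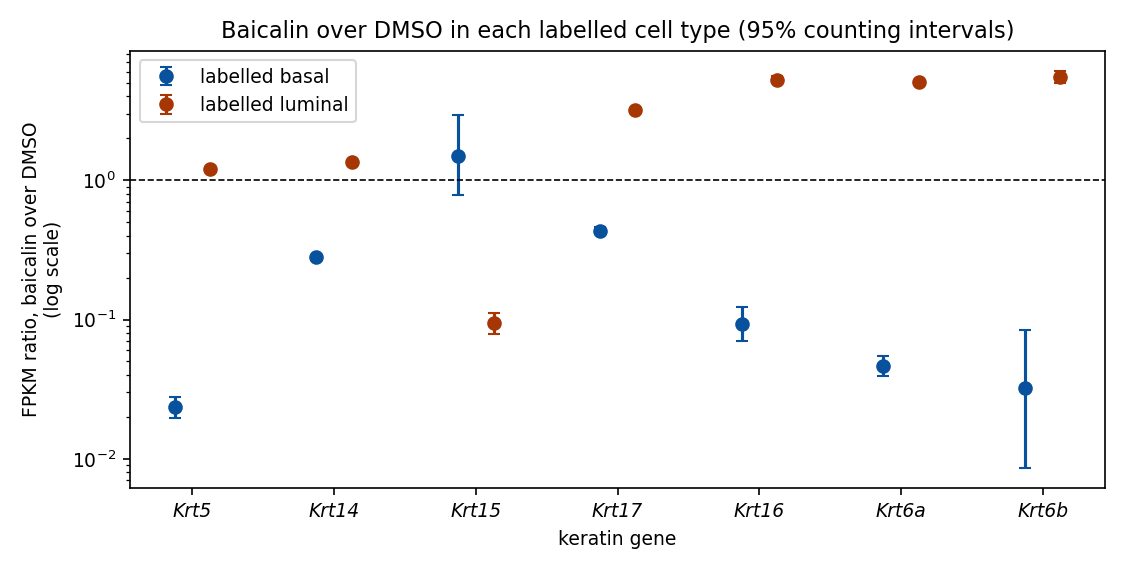
Ratio of FPKM with baicalin over DMSO for each keratin (log scale), in the basal-labelled and the luminal-labelled libraries, with bars for exact 95% counting intervals and a dashed line at no change. The points of the 2 labels lie on opposite sides of the line for all 7 genes, with Krt15 opposite to the rest and its basal-labelled interval crossing the line.

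Set side by side, the changes had opposite signs in the 2 labels for each of the 7 members. The luminal-labelled change minus the basal-labelled change was 6.36 for Krt6a, 5.27 for Krt5, 5.23 for Krt16, 4.13 for Krt6b, 2.86 for Krt17 and 2.28 for Krt14, all above 1. Of all genes tested, 4.41% had such a difference above 1 and 2.65% one below -1. Krt15 had -3.34, the 1 member below -1. The value of Krt6b was 7.42 without the pseudocount. With 1 library per condition these differences could not be tested.

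**Figure D3:**
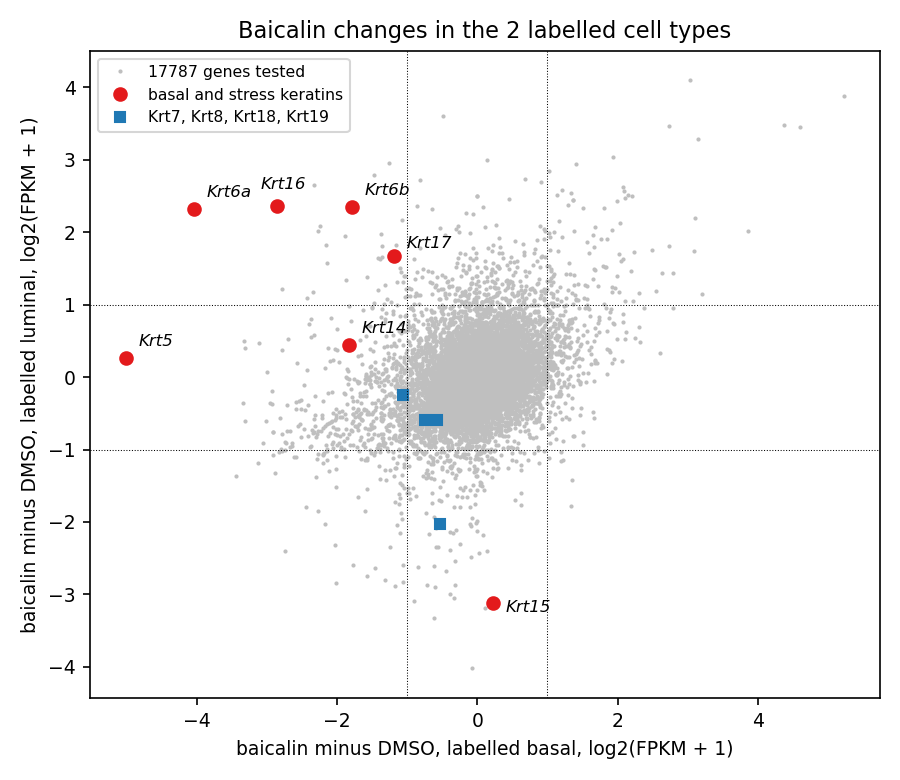
Change with baicalin on the log2(FPKM + 1) scale in the basal-labelled libraries (horizontal) and in the luminal-labelled libraries (vertical) for the 17787 genes tested (grey), the 7 basal and stress keratins (red) and Krt7, Krt8, Krt18 and Krt19 (blue squares), with dotted lines at -1 and 1. The 4 stress keratins lie in the upper left, lower in one label and higher in the other, and Krt15 lies at the bottom.

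The balance of chains that pair in a filament differed between libraries. FPKM is scaled to length, so levels of different genes can be compared. Krt14 over Krt5 was 11.7 in the basal-labelled DMSO library and 139 in the basal-labelled baicalin library, but 1.15 and 1.30 in the luminal-labelled libraries. Over the 7 members, type I over type II chains gave 8.26 and 75.8 in the basal-labelled libraries and 1.29 and 1.49 in the luminal-labelled ones. Over all keratin genes the same ratio stayed between 1.24 and 1.80. Krt8, a type II chain, made up 31.1% and 32.2% of the summed keratin FPKM of the basal-labelled libraries. Type I and type II chains as a whole were thus closer to balance in all 4 libraries than the basal and stress keratins were in the basal-labelled ones.

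The stress keratins also differed among themselves. Krt6a over Krt6b was 24.5 and 35.6 in the basal-labelled libraries and 10.9 and 9.98 in the luminal-labelled ones, ratios that depend on how reads of the 2 copies were assigned. Krt6a over Krt16, the pair of wounded skin, was 3.44, 1.72, 2.83 and 2.70 across the libraries, and so varied less than Krt14 over Krt5. Krt17 over Krt14, 2 type I chains, was 0.0818, 0.127, 0.155 and 0.364, highest in the luminal-labelled baicalin library.

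As a share of all keratin FPKM, the 7 members held 36.2% in the basal-labelled DMSO library, 20.5% in the basal-labelled baicalin library, 85.5% in the luminal-labelled DMSO library and 92.6% in the luminal-labelled baicalin library. The stress keratins alone held 4.18%, 2.48%, 8.98% and 23.9% in the same order. The basal keratins held 32.0%, 18.0%, 76.5% and 68.7%. In the luminal-labelled libraries both groups had more FPKM with baicalin, 4365 and 5551 FPKM for the summed basal keratins and 513 and 1933 FPKM for the summed stress keratins, under DMSO and baicalin. Krt17 held 14.1% and Krt6a 6.67% of all keratin FPKM in the luminal-labelled baicalin library. The summed keratin FPKM itself was 5066, 2341, 5708 and 8079.

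**Figure D4:**
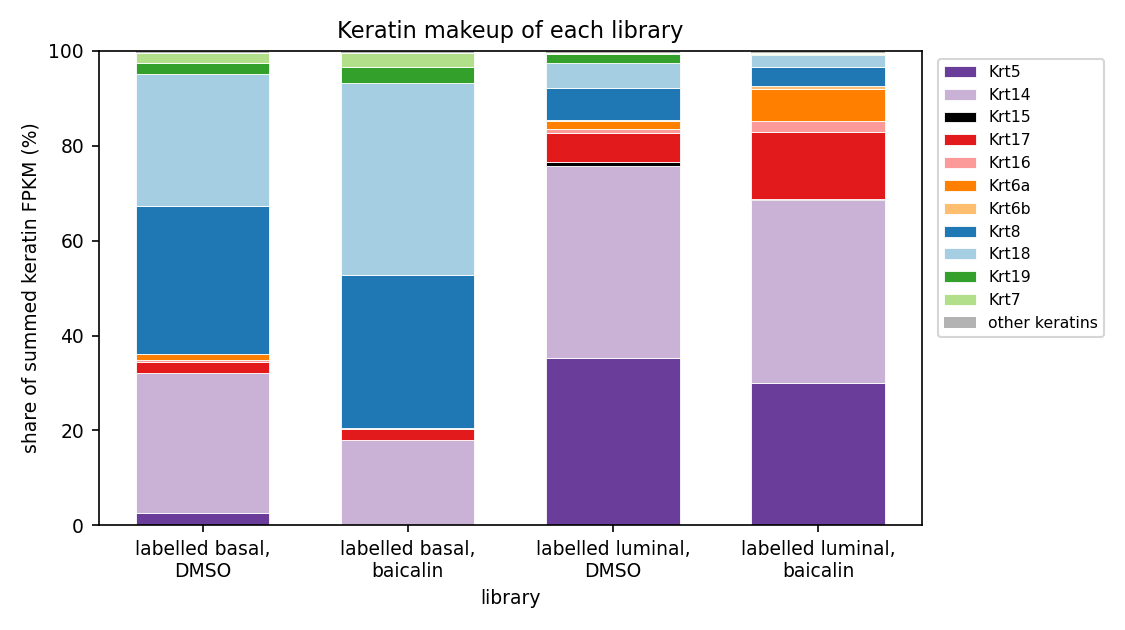
Share of the summed keratin FPKM (%) held by each keratin gene in each library, as stacked bars that start at 0. Krt8 and Krt18 (blue) fill most of the bars of the basal-labelled libraries, and Krt5 and Krt14 (purple) most of those of the luminal-labelled libraries, where Krt17 (red) and Krt6a (orange) are wider with baicalin.

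The other keratins give the background for these shares. The table lists 54 keratin genes, of which 12 were at 0 in all 4 libraries and 8 besides the members reached 5 FPKM in a library. Krt8 had 1573, 754, 383 and 324 FPKM, and Krt18 had 1408, 948, 298 and 197 FPKM in the order used above. Krt7, a further simple-epithelium keratin, had 115, 68.2, 11.4 and 7.19 FPKM. All of these were higher in the basal-labelled libraries, and the simple keratins as a group made up 63.4%, 79.1%, 14.1% and 6.93% of the keratin FPKM. With baicalin, 5 of 5 simple keratins tested were lower in each label. In each label 1 of them was lower by more than 1, namely Krt8 in the basal-labelled and Krt19 in the luminal-labelled libraries. Of all genes tested, 3.33% and 1.59% were lower by that much, in the same order.

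Among keratins of suprabasal and squamous cells, Krt79 was, like Krt5, lower with baicalin in the basal-labelled libraries, going from 6.28 to 0.125 FPKM, and had 9.50 and 14.1 FPKM in the luminal-labelled ones. Krt10, a keratin of differentiating skin cells, had 0.762 and 0.793 FPKM in the basal-labelled and 2.18 and 6.16 FPKM in the luminal-labelled libraries. Krt80 had 8.45, 7.997, 3.00 and 8.87 FPKM. Krt23 had 1.13, 0.599, 9.05 and 6.00 FPKM and was, of the 5 simple keratins tested, the 1 that was higher in the luminal-labelled libraries.

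Position in the clusters was described as well. Krt6b, Krt6a and Krt5 are neighbours and were all lower with baicalin in the basal-labelled libraries, but in the luminal-labelled libraries Krt6b and Krt6a were 5.50-fold and 5.02-fold higher and Krt5 1.20-fold. Krt16 and Krt17 lie 7.32 kb apart and changed in the same directions. The next gene beside Krt15 among the keratins shown is Krt19, which had 116, 80.0, 105 and 25.0 FPKM and was, like Krt15, lower with baicalin in the luminal-labelled libraries (4.21-fold). Krt14, on the other side of Krt19, was not.

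**Figure D5:**
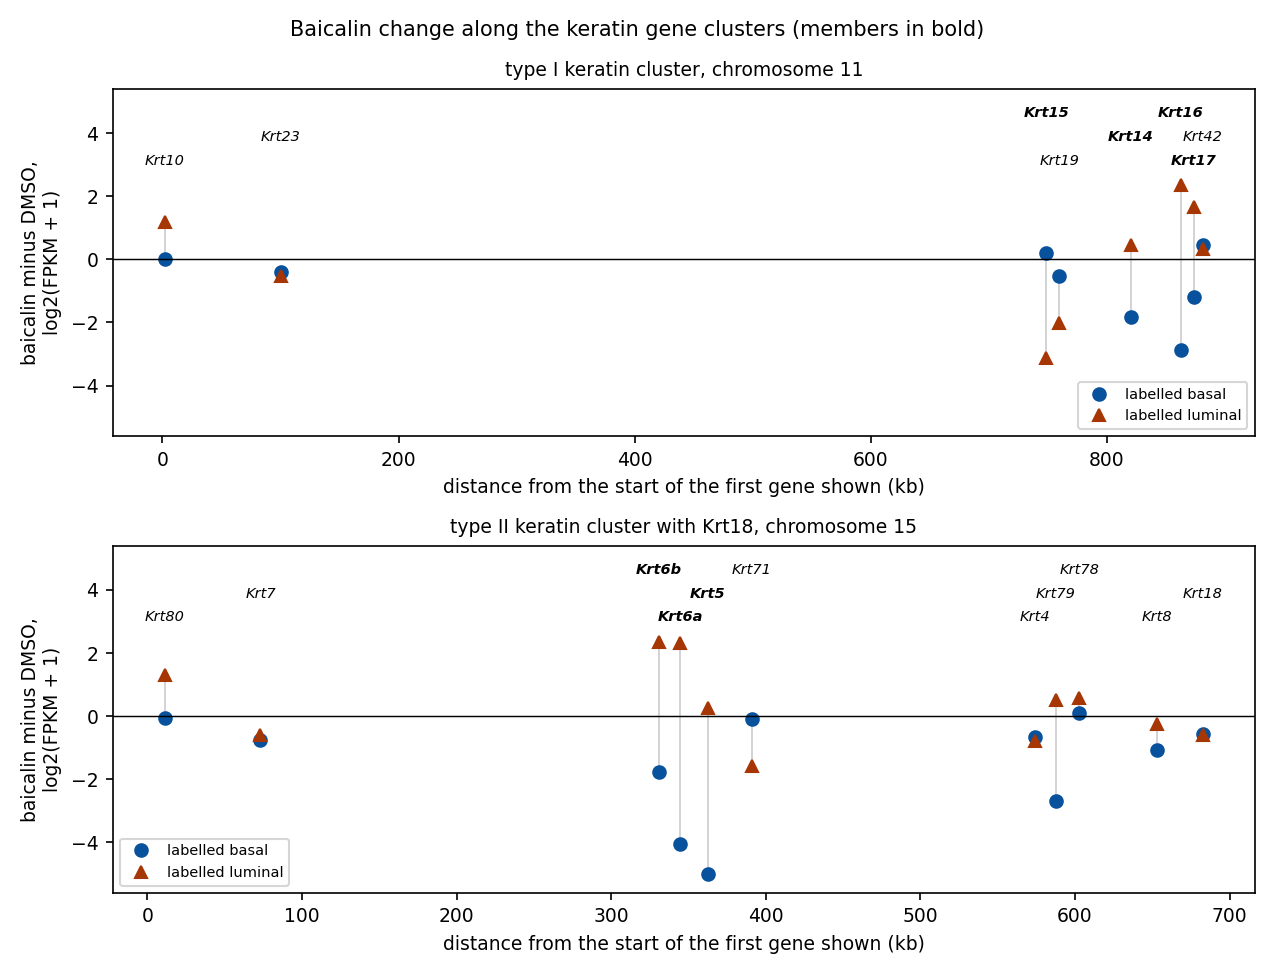
Change with baicalin on the log2(FPKM + 1) scale of each keratin gene of at least 1 FPKM in a library, against its distance (kb) from the first gene shown, in the type I cluster (upper panel) and in the type II cluster with Krt18 (lower panel), with circles for basal-labelled and triangles for luminal-labelled libraries. Members are in bold, and grey lines join the 2 values of a gene: the longest are those of Krt6a, Krt5 and Krt16.

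Keratin filaments are anchored at desmosomes between cells and at hemidesmosomes on the basement membrane, so genes of both were counted from lists. Of 12 desmosome genes tested, 4 were higher and 1 lower by more than 1 in the luminal-labelled DMSO library, and 8 were higher and 1 lower in the luminal-labelled baicalin library, each against its basal-labelled counterpart. Of all genes tested, 4.71% were higher and 3.86% lower under DMSO, and 5.24% higher and 2.99% lower under baicalin. With baicalin, 2 desmosome genes were lower by more than 1 in the basal-labelled libraries (3.33% of all genes) and 2 were higher in the luminal-labelled ones (2.37%). Dsg3, a desmosomal cadherin of basal keratinocytes, had 23.1, 8.68, 70.8 and 173 FPKM, the same order of libraries as every member but Krt15. Dsc3, which pairs with it, had 1.98, 0.183, 39.1 and 52.3 FPKM. Dsg1a, a cadherin of upper skin layers, had 0.0177, 0.0173, 2.57 and 9.28 FPKM, whereas Pkp2, a plaque protein, was higher in the basal-labelled libraries with 10.98, 11.4, 3.19 and 2.54 FPKM.

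Of 9 genes of hemidesmosomes and their laminin, 7 were higher in the luminal-labelled library under DMSO, 2 of them by more than 1 (4.71% of all genes tested). Under baicalin 9 were higher there, 6 of them by more than 1 (5.24% of all genes tested). With baicalin, 1 was lower in the basal-labelled and 1 higher in the luminal-labelled libraries by more than 1, where 3.33% and 2.37% of all genes tested were. Col17a1, a transmembrane collagen of the hemidesmosome, had 23.2, 1.42, 193 and 272 FPKM, close to the pattern of Krt5. Lama3, the alpha chain of the laminin, had 15.4, 11.3, 30.0 and 76.8 FPKM, and Lamb3, the beta chain, had 27.0, 23.1, 58.7 and 86.3 FPKM. Of 3 other linker proteins, Evpl, which encodes envoplakin, was the 1 past 1 in any comparison of libraries, with 7.77, 6.77, 2.91 and 6.78 FPKM.

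Of 20 genes known to regulate keratin genes, 1 was lower and 1 higher by more than 1 with baicalin in the basal-labelled libraries, close to the 3.33% and 2.15% of all genes tested. The lower one was Trp63, which encodes p63, the master regulator of basal epithelial cells, with 6.01, 0.306, 25.2 and 27.0 FPKM. The higher one was Myc, with 37.7, 81.5, 14.6 and 40.8 FPKM. In the luminal-labelled libraries 4 were higher and none was lower by more than 1, beside 2.37% and 1.59% of all genes, and the 4 included Fosl1, an AP-1 subunit, with 11.9, 21.5, 2.21 and 9.50 FPKM, and Klf4, a factor of the epidermal barrier, with 34.1, 41.0, 19.3 and 54.3 FPKM. Jun, another AP-1 subunit, had 47.6, 52.95, 224 and 130 FPKM, and so was higher in the luminal-labelled libraries but not with baicalin there. The median change of the 20 genes was 0.15 in the basal-labelled and 0.07 in the luminal-labelled libraries, so the list as a whole did not move as Trp63 did.

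Genes that skin cells switch on together with stress keratins were counted as a list of activated keratinocytes. Of 15 tested, 9 were higher and none lower by more than 1 with baicalin in the luminal-labelled libraries, with a median change of 1.13. In the basal-labelled libraries 5 were lower and 1 was higher, with a median change of -0.11. Of all genes tested, 2.37% were higher and 1.59% lower in the luminal-labelled libraries, and 2.15% higher and 3.33% lower in the basal-labelled ones. Sprr1a, a cornified envelope precursor, had 5.87, 0.856, 15.8 and 64.0 FPKM. Il1a, which encodes the alarm cytokine interleukin-1 alpha, had 39.3, 13.5, 1.81 and 18.4 FPKM, and Mmp3, a matrix protease, had 32.2, 6.02, 9.50 and 43.5 FPKM. Areg, an EGF receptor ligand, was the 1 that was higher in the basal-labelled baicalin library, with 63.2, 158, 21.4 and 37.5 FPKM. Plaur, the urokinase receptor, had 24.0, 34.8, 4.01 and 14.1 FPKM.

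Under DMSO, however, 8 of these 15 genes were lower and 1 was higher by more than 1 in the luminal-labelled library (3.86% and 4.71% of all genes), while all 4 stress keratins were higher there. The list and the stress keratins thus went together for the changes with baicalin in the luminal-labelled libraries, but not for the difference between the untreated labels. In the basal-labelled libraries the list was mixed with baicalin, with 9 genes lower and 6 higher, while all 4 stress keratins were lower with a median change of -2.32. The comparisons share libraries, so their values are set side by side without a test.

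The genes with the profile most like each member over the 4 libraries were found among 8547 protein-coding genes of at least 5 FPKM in a library, by the Euclidean distance of log2(FPKM + 1) values centred on their mean. For Krt5 they were Col17a1 (2.07), Dmkn (2.52) and Sostdc1 (2.61), and for Krt14 Ifitm3 (0.38), Nt5dc2 (0.41) and Dram1 (0.44). For Krt15 they were Il33 (0.39), Emid1 (0.61) and Lgr5 (0.81). By this distance no gene came as close to Krt5 as those of Krt14 and Krt15 did to them. The distance also grows with the spread of a profile, and Krt5 went from 3.01 to 2415 FPKM. By Pearson correlation, which does not depend on the spread, Trp63 ranked first for Krt5 (r 0.99997 over 4 libraries). Agfg2 (r 0.99995) and Hspa1b (r 0.99992) followed closely, so the correlation does not single out Trp63.

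For Krt17 the nearest genes were Dsg3 (0.31), Pinlyp (0.45) and Mill1 (0.45), and for Krt16 Sprr1a (0.82), Mill1 (1.10) and Dsg3 (1.49). For Krt6a they were Sprr1a (1.67), Col17a1 (1.75) and Moxd1 (1.76), and for Krt6b Mill1 (0.46), Sprr1a (0.48) and Aqp3 (1.09). Sprr1a and Mill1 thus stood among the nearest genes of 3 stress keratins each. Among the members themselves the closest profiles were those of Krt16 and Krt6b (0.76), and the farthest those of Krt5 and Krt15 (5.56). With 4 libraries, many genes have similar profiles, and a ranking by Pearson correlation named other genes, with Mill1 for Krt17 in both.

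Markers of cell types moved along with the members in part. With baicalin, 3 of 11 basal and myoepithelial markers were lower by more than 1 in the basal-labelled libraries, where 3.33% of all genes tested were: Trp63, Vim, from 16.2 to 2.37 FPKM, and Snai2, from 4.26 to 0.415 FPKM. Vim encodes vimentin and Snai2 the transcription factor Slug. None of the 11 was higher by more than 1 there, and their summed level was 93.9 FPKM with DMSO and 49.2 FPKM with baicalin. In the luminal-labelled libraries 3 of 11 were lower with baicalin, beside 1.59% of all genes, namely Oxtr, the oxytocin receptor, and Cnn1 and Tagln of smooth muscle contraction, and the summed level was 944 and 712 FPKM. Acta2, smooth muscle actin, had 7.66, 3.49, 555 and 417 FPKM. With baicalin in the luminal-labelled libraries, the 4 stress keratins were higher, while 7 of the 11 basal markers were lower and 4 were higher. The part of the cell makeup in the keratin changes was not tested.

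Markers of luminal subtypes moved too. Of 6 hormone-sensing luminal markers, 3 were lower and 1 higher by more than 1 with baicalin in the luminal-labelled libraries, where 1.59% and 2.37% of all genes were. Cited1, a cofactor of the oestrogen receptor, had 0.0574, 0.169, 7.36 and 0.580 FPKM. Foxa1, a pioneer factor of that receptor, had 1.80, 1.35, 9.30 and 1.09 FPKM. Both were highest in the luminal-labelled DMSO library, as Krt15 was. Under DMSO, 4 of the 6 markers were higher and 2 lower in the luminal-labelled library than in the basal-labelled one. The lower ones were Prlr and Ly6a, with log2 differences of -1.14 and -0.83, so the list was mixed with respect to the label. Of 5 alveolar luminal markers tested, 3 were lower by more than 1 with baicalin in the basal-labelled libraries, Elf5, Kit and Csn3, where 3.33% of all genes were. In the luminal-labelled libraries 2 were lower by more than 1, Kit and Csn3, and 1 was higher, Aldh1a3. Their part in the keratin changes was not tested.

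Markers of other cells had summed levels of at most 15.5 FPKM apart from the immune marker Cd68. The 3 adipocyte markers summed to 0.163, 0.884, 15.5 and 5.29 FPKM and the 7 fibroblast markers to 7.22, 3.07, 11.2 and 9.82 FPKM. Both sums were highest in the luminal-labelled DMSO library, as was Krt15, but most of the fibroblast sum there was Pdgfra. Of the 7 fibroblast markers, 5 were lower and 2 higher there than in the basal-labelled DMSO library. With baicalin 6 of the 7 were higher and 1 lower in the luminal-labelled libraries, unlike Krt15. Fabp4, a fatty acid carrier of adipocytes, had 0.0898, 0.725, 9.81 and 4.21 FPKM, and Pdgfra, a growth factor receptor of fibroblasts, had 0.593, 0.630, 6.30 and 1.67 FPKM. Each of these 2 genes passed 1 between the labels under DMSO and with baicalin in the luminal-labelled libraries. Their part in the level of Krt15 was not tested. The 5 endothelial markers summed to between 0.876 and 3.46 FPKM. Among the immune markers, Ptprc, Cd3e, Adgre1 and Itgam had at most 0.0449 FPKM in any library. Cd68, a lysosomal protein of macrophages and other cells, had 7.49, 51.5, 4.44 and 13.7 FPKM and was higher with baicalin in both labels.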

How the data were processed

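RNA from 3D cultures of mouse mammary cells labelled basal or luminal, with DMSO or 100 μM baicalin, was sequenced in 4 libraries, made with a stranded kit after oligo(dT) enrichment. The authors aligned reads with HISAT2 to GRCm38 (Ensembl annotation), counted them with featureCounts and deposited FPKM with 4 decimals for 54446 genes. The submitters' processing notes also name Bowtie 0.12.2 and mm8. The strand setting is not given in the sources used here, so antisense and overlapping genes are uncertain. No scaling between libraries is stated beyond the fragments counted.

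From the deposited FPKM, differences of log2(FPKM + 1) were computed on the 17787 genes above 0 in all 4 libraries, with a threshold of 1. FPKM multiplied by GENCODE M21 exon length (known for 54409 genes) fell on whole fragments, within 0.1, for between 98.2% and 98.3% of low values. This gave the depth and the exact Clopper-Pearson intervals of ratios and exact Poisson intervals of levels. Genes named are the 7 members, other keratins of at least 5 FPKM, list genes past the threshold, cell markers and the 3 nearest genes of each member. Not every gene this rule selects is reported here. The members and lists were chosen with earlier results of these data known. Alternatives were a pseudocount of 0.1 or none, TPM, centring, 2 other filters, a threshold of 2, and Krt6a and Krt6b summed. The computation was tested on simulated data. The software was Python 3.11.15 with biopython 1.88, matplotlib 3.10.9, numpy 2.4.6, scipy 1.17.1 and pandas 2.3.3. Libraries treated with hormones were not analysed here.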

Additional observations from a re-analysis of the deposited data

Results flagged for a closer look

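Of 15 keratin genes at 5 FPKM or more in a library, 9 had changes with baicalin in opposite directions in the 2 labels. These differences were not tested because each condition had 1 library. The luminal-labelled minus the basal-labelled change, on the log2(FPKM + 1) scale, was 5.27 for Krt5, 2.28 for Krt14, -3.34 for Krt15, 2.86 for Krt17, 5.23 for Krt16, 6.36 for Krt6a and 4.13 for Krt6b. It was also 3.22 for Krt79, with changes of -2.70 and 0.52, and 1.38 for Krt80, with changes of -0.07 and 1.30. The basal-labelled changes of Krt15 and Krt80 were within counting error, so their opposite signs are uncertain.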

How the results depend on the processing

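Of 140 values of single members computed under alternative settings, 0 changed sign and 0 crossed the threshold of 1. Their sizes were less stable. Values that moved by more than their counting error numbered 16 without a pseudocount and 15 with a pseudocount of 0.1. There were 14 such values with TPM and 6 with centring. With a threshold of 2, the members higher in the luminal-labelled DMSO library went from 4 to 2, and those lower with baicalin in the basal-labelled libraries went from 6 to 3. When fragments were used in place of FPKM, the share of all keratins held by the 7 members was 34.6%, 19.1%, 85.9% and 92.4%, in the order basal-labelled with DMSO, basal-labelled with baicalin, luminal-labelled with DMSO and luminal-labelled with baicalin. The other counts of members stayed within 1.5 times under each setting, Krt6a and Krt6b summed included. The 2 other filters could not change any count of members, because all 7 members pass them, so they are no check of these counts. No paired analysis was possible because each condition had 1 library and the labels carry no shared replicate numbers. The main limits are this lack of replicates, the 2 main marker lists that went against the labels, and the reads that Krt6a, Krt6b and Krt16 share with near-identical genes.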
